A study of Mus musculus with 7 samples.

Results

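The AP-1 and Egr immediate early transcription factors were examined in C3H10T1/2 cells, multipotent mouse cells of the mesenchyme from which osteoblasts and adipocytes can be obtained. The members were chosen by gene symbol and are Fos, Fosb, Fosl1, Fosl2, Jun, Junb, Jund, Egr1, Egr2 and Egr3. Each has 1 row in the table of gene counts, so that they make up 10 of its 18468 genes. The cells were kept without serum for 12 h and then exposed for 48 h, still without serum, to 2 μM purmorphamine, a small-molecule agonist of Smoothened (Smo), in 4 libraries. The 3 control libraries came from cells treated in the same way with the vehicle, 0.02% DMSO. By the labels, all the cells were of 1 purchased line and within 10 passages of purchase. The libraries, from total RNA without its ribosomal part, are named by their own numbers, DMSO 2 to 4 and purmorphamine 5 to 8. Nothing states whether they came from separate cultures, so that p-values measure the spread between these libraries.

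Immediate early genes are transcribed within minutes of a stimulus such as serum, without a need for new protein. AP-1 is a dimer of basic leucine zipper proteins, in which a Fos protein needs a Jun partner to bind DNA, whereas Jun proteins can also pair with each other. Fos, Fosb and Jun proteins carry strong activation domains, Fosl1 (Fra-1) and Fosl2 (Fra-2) lack the one of Fos, and Junb and Jund often activate more weakly than Jun. The Egr proteins are zinc-finger factors that bind GC-rich sites and are held back by the corepressors Nab1 and Nab2. In cells of mesenchyme, Fos, Fosl1 and Fosl2 are known for their roles in bone, and Egr1 for its response to growth factors and mechanical load.

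Depth was equal by design, since the authors resampled the reads. Totals ran from 14341258 to 14342154 reads with vehicle and from 14337225 to 14339393 with purmorphamine. Where a gene had 0 reads, its true count may have been as high as 3, or 0.209 CPM (reads in every 1000000), by counting error alone. No pair of libraries was a copy of another, since the mean chi-square per gene was at least 2.07 within a treatment. The response to the agonist was evident in Gli1 and Ptch1, both direct targets of Hedgehog signaling. Gli1 had 12, 7 and 11 reads under vehicle, against 2811, 3171, 2576 and 2522 under purmorphamine, whereas Ptch1 had 504 to 532 and 10296 to 11451. Among mesenchymal markers, Col1a1, Col1a2, Pdgfra, Pdgfrb, Thy1, Vim, Prrx1 and Twist1 were all tested, and 4 rose (Pdgfra, Thy1, Twist1 and Prrx1, with log2 fold changes of 0.76, 0.74, 0.65 and 0.22), 2 fell (Vim, -0.96, and Col1a2, -0.23) and 2 were not called. Their summed reads, most of them from Vim and Col1a2, were 199512 to 204882 with vehicle and 165356 to 174394 with purmorphamine. Of 4 endothelial markers, Pecam1 and Kdr had at most 5 reads in any library, whereas Tek rose (770 to 816 reads against 1870 to 2124) and Cdh5 had 0 reads in each vehicle library and 21 to 26 with purmorphamine. The 4 together gave 779 to 820 and 1898 to 2154 reads. Of 4 epithelial markers, Cdh1 rose from 14 to 21 reads to 110 to 135, Krt14 had at most 1 read, and Epcam and Krt5 have no row in the table. The summed reads of macrophage markers were 13 to 19 and 10 to 21, with Ptprc at 0 in all but 1 library, and those of neuronal markers at most 2. Of 4 adipocyte markers only Adipoq has a row, with 10 to 19 and 4 to 8 reads. The part of these marker changes in the results below was not tested.

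With purmorphamine, transcripts for 3 members were more abundant, those for Fosl2, Jund and Egr1, and those for 5 were less abundant, Fos, Fosb, Jun, Junb and Egr2. Egr3 was not called, and Fosl1 was too low to be tested. Calls used the quasi-likelihood test of edgeR and a threshold of 0.2 on the adjusted p (Benjamini-Hochberg), as the FDR of the study, among 12388 genes left by a filter for low counts. In that fit 62.5% of all genes were called, 31.4% higher and 31.1% lower, so that a call by itself says little about a member. At an unadjusted p under 0.05 there were 7 members, and 53.2% of all genes. At 1.5-fold or more there was 1 member, Fos, and 15.4% of all genes. Fos, with a log2 fold change of -1.15, moved farther than 94.6% of the genes tested. Fosl2 moved farther than 82.4% of them and Jun farther than 42.8%. The median log2 fold change was -0.28 over the 9 members tested and 0.0038 over all genes. Reads of bulk RNA do not distinguish fewer cells with a transcript from less of it per cell.

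**Figure D1:**
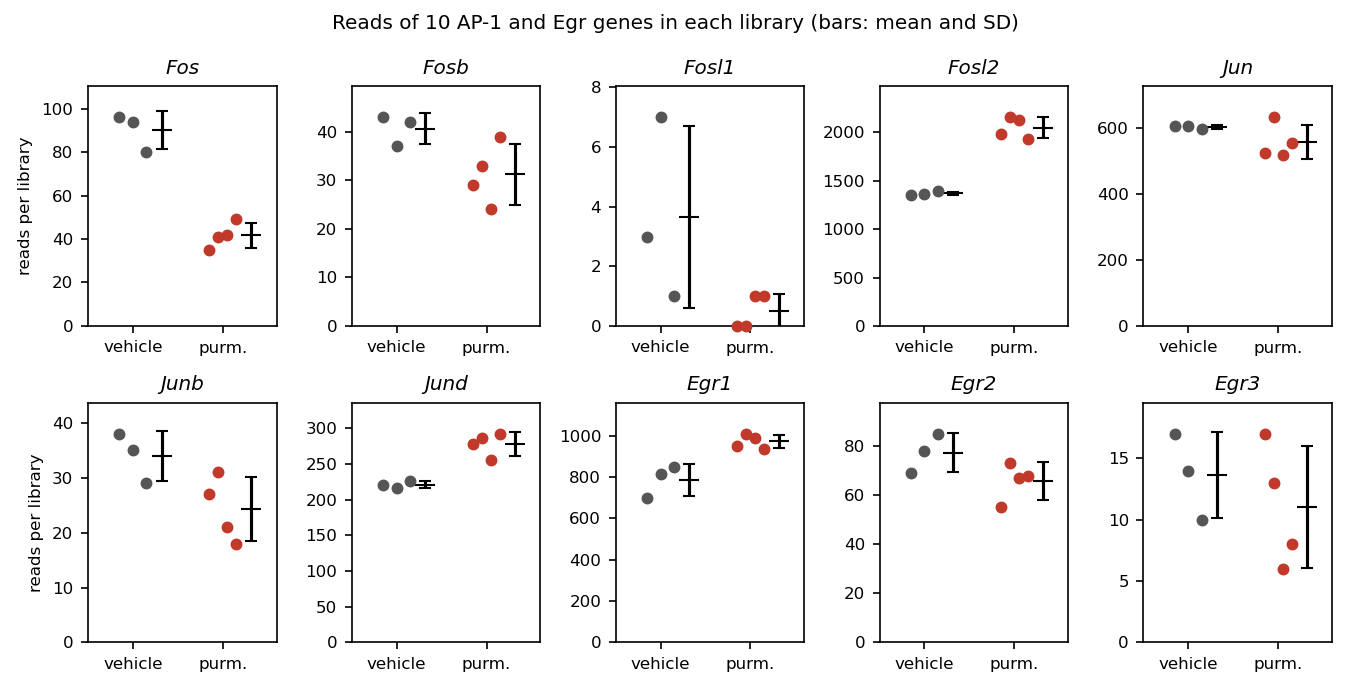
Reads in each library (points) for the 10 genes with vehicle (grey, 3 libraries) and purmorphamine (red, 4 libraries), with the mean and SD beside them, on axes that start at 0, where the SD bar of Fosl1 is cut. For Fos every purmorphamine library lies below every vehicle library, and for Fosl2, Jund and Egr1 every one lies above.

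**Figure D2:**
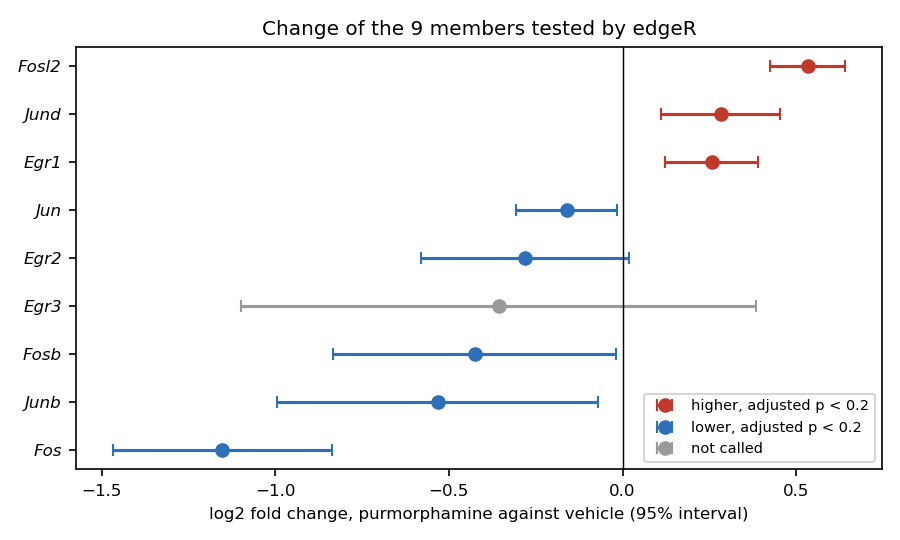
Log2 fold change of the 9 members tested (x axis, purmorphamine against vehicle) with 95% intervals from edgeR. Fosl2, Jund and Egr1 lie to the right of 0, Fos lies farthest to the left at -1.15, and the intervals of Egr2 and Egr3 include 0.

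Levels were compared between genes as reads per kilobase of exon and per 1000000 reads. With vehicle, Jun (13.2 ± 0.133, SD, n = 3) and Egr1 (12.2 ± 1.21) were the most abundant, and their ranges overlapped. Fosl2 followed at 9.87 ± 0.135, then Jund at 9.24 ± 0.209. Below them, and with no overlap between neighbors, came Fos at 2.67 ± 0.258, Egr2 at 1.59 ± 0.165, Junb at 1.03 ± 0.139 and Fosb at 0.454 ± 0.0359. Egr3 at 0.216 ± 0.0556 and Fosl1 at 0.126 ± 0.105 were lowest, with ranges that overlapped. With purmorphamine the order changed in its upper part and its middle. Egr1 (15.1 ± 0.52, SD, n = 4) and Fosl2 (14.8 ± 0.787) were now highest, with overlapping ranges, followed by Jun (12.2 ± 1.14) and Jund (11.6 ± 0.678), which also overlapped. Fos, at 1.24 ± 0.17, overlapped Egr2, at 1.35 ± 0.157. All these levels, and so the order of the genes, rest on the exon lengths used. Jund shows how far a level depends on the gene model. Its exons span 1668 bases in GENCODE M21 but its gene 3277 in the table's own coordinates, by which its level was 4.70 with vehicle and 5.91 with purmorphamine.

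Fos (ENSMUSG00000021250, chromosome 12 from 85473890 to 85477273 in GRCm38, plus strand) encodes c-Fos, the founding Fos protein. It had 96, 94 and 80 reads under vehicle, against 35, 41, 42 and 49 under purmorphamine. Every vehicle library was above every purmorphamine library, with a gap wider than the spread within either group. The log2 fold change was -1.15 (edgeR, adjusted p = 6.91e-06, standard error 0.149), or 0.45-fold with a 95% interval from 0.361 to 0.56. Over 35 ways to assign the libraries, an exact permutation test gave p = 0.0286 (two-sided), the smallest that 3 against 4 libraries allow.

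Fosl2 (ENSMUSG00000029135, chromosome 5 from 32135801 to 32157842, plus strand) encodes Fra-2, and it was the Fos family member with the most reads. It had 1353, 1366 and 1390 reads under vehicle, against 1982, 2156, 2126 and 1931 under purmorphamine. The vehicle libraries lay within a narrow band and all the purmorphamine libraries lay above it. Its log2 fold change was 0.53 (edgeR, adjusted p = 1.83e-07, standard error 0.0512), or 1.45-fold with a 95% interval from 1.34 to 1.56 (exact permutation test, two-sided, p = 0.0286).

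Fosb (ENSMUSG00000003545, chromosome 7 from 19302696 to 19310051, minus strand) encodes FosB and, by splicing, a shorter form that lacks part of the activation domain. It had 43, 37 and 42 reads under vehicle, against 29, 33, 24 and 39 under purmorphamine. The groups overlapped, since purmorphamine 8 was above DMSO 3. The log2 fold change was -0.43 (edgeR, adjusted p = 0.0808, standard error 0.193), whereas the exact permutation test gave p = 0.0857 (two-sided). The call was lost without DMSO 2 (log2 fold change -0.38, adjusted p = 0.208 from edgeR).

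Fosl1 (ENSMUSG00000024912, chromosome 19 from 5447547 to 5455946, plus strand) encodes Fra-1, an AP-1 factor of bone matrix formation. It was close to the limit of detection, with 3, 7 and 1 reads under vehicle, against 0, 0, 1 and 1 under purmorphamine. The low and high libraries met at 1 read. Per library there were 0.136 times as many reads with purmorphamine (2 against 11 reads in all), with an exact 95% interval from 0.0147 to 0.625 for counting error only. The exact permutation test gave p = 0.0286 (two-sided) after scaling, which resolves the tie, and p = 0.0857 on the counts as deposited.

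The sequences before the start sites of Fos, Fosb and Fosl2 are shown because Fos and Fosb fell where Fosl2 rose. They are the 250 bases that precede each RefSeq start, from RefSeq on GRCm38.p6, written 5′ to 3′ on the strand of the gene. Capitals mark TGACG, the core of a cAMP response element, and GCGNGGGCG, a site of the kind that Egr proteins bind.
Fos (chr12:85473640-85473889, plus strand): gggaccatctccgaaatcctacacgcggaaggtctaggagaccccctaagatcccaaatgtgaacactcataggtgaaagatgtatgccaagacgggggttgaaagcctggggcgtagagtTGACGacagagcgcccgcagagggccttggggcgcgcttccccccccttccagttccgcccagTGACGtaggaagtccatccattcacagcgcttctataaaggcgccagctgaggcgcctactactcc
Fosb (chr7:19310046-19310295, minus strand): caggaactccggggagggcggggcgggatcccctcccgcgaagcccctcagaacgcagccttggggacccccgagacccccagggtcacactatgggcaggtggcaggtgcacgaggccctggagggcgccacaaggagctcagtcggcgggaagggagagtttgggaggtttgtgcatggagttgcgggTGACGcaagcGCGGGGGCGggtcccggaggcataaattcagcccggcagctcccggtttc
Fosl2 (chr5:32136222-32136471, plus strand): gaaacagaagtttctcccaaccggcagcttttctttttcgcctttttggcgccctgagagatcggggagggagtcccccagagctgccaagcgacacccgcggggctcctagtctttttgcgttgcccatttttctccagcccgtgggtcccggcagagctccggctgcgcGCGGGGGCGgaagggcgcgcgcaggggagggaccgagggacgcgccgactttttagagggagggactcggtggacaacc

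In these windows TGACG stood from 66 to 62 and from 129 to 125 bases before the start of Fos and from 60 to 56 before that of Fosb. GCGNGGGCG stood from 50 to 42 bases before the start of Fosb and from 79 to 71 before that of Fosl2. The search covered both strands and 7 members with 11 windows. RefSeq promoters of Fosl1, Egr1 and Egr3 were not analysed here. TGACG was found in the single windows of Fos, Fosb and Junb and in 3 of the 5 windows of Egr2, which overlap in part, and not in those of Fosl2, Jun and Jund. The windows precede RefSeq starts, which are the GENCODE starts given here for Fos and Jun but not for Fosb, Fosl2, Junb, Jund and Egr2. The window of Fosl2 lies within the GENCODE gene, and that of Jund ends at 70697738 on chromosome 8, before the GENCODE start at 70698949. Of the 5 windows of Egr2, 4 lie within the GENCODE gene, past its start at 67535475. The GC content of the 11 windows ran from 47.6% (Jund) to 71.2%, where the median of all windows was 52.4%. Of all 32841 promoter windows of that length, 17.8% held TGACG and 4.70% held GCGNGGGCG. A CArG box, the site of serum response factor, was found in 4 of the 5 windows of Egr2, those within the GENCODE gene, and in 1.47% of all. The AP-1 site TGANTCA, the full cAMP response element TGACGTCA (which contains TGACG) and the Gli site GACCACCCA were in none of the 11 windows, and in 6.75%, 1.55% and 0.225% of all windows. Only exact matches to these patterns were counted, so variants of the sites would be missed. Sites outside these windows, such as any farther upstream, would be missed as well. Such matches describe the letters of these windows.

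Jund (ENSMUSG00000071076, chromosome 8 from 70698949 to 70700616, plus strand) encodes JunD, which is present in many resting cells. It had 221, 216 and 226 reads under vehicle, against 278, 286, 255 and 292 under purmorphamine. All the purmorphamine libraries were above all the vehicle libraries. Its log2 fold change was 0.28 (edgeR, adjusted p = 0.00854, standard error 0.0806), or 1.22-fold with a 95% interval from 1.08 to 1.37 (exact permutation test, two-sided, p = 0.0286).

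Jun (ENSMUSG00000052684, chromosome 4 from 95049034 to 95052222, minus strand) encodes c-Jun, the principal partner of Fos proteins and a target of the JNK kinases. It had 606, 605 and 595 reads under vehicle, against 524, 631, 518 and 553 under purmorphamine. Purmorphamine 6 was the highest of all libraries, and the other purmorphamine libraries were below the vehicle libraries. The log2 fold change was -0.16 (edgeR, adjusted p = 0.0652, standard error 0.0686), and the exact permutation test gave p = 0.143 (two-sided). Without TMM scaling the adjusted p was 0.201, on the other side of the threshold.

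Junb (ENSMUSG00000052837, chromosome 8 from 84974484 to 84978718, minus strand) encodes JunB, which can oppose c-Jun. It had 38, 35 and 29 reads under vehicle, against 27, 31, 21 and 18 under purmorphamine. The groups overlapped by 1 library each, DMSO 4 and purmorphamine 6. The log2 fold change was -0.53 (edgeR, adjusted p = 0.0558, standard error 0.219), as large as that of Fosl2 in the other direction but with a wider 95% interval, which as a fold ran from 0.502 to 0.953. The exact permutation test gave p = 0.0857 (two-sided).

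Egr1 (ENSMUSG00000038418, on chromosome 18) encodes the zinc-finger factor Egr1, also called Zif268 or Krox-24. It had 700, 813 and 849 reads under vehicle, against 951, 1009, 990 and 937 under purmorphamine. DMSO 2 was the lowest library, and all the purmorphamine libraries were above the highest vehicle library. The log2 fold change was 0.26 (edgeR, adjusted p = 0.00334, standard error 0.0639), or 1.19-fold with a 95% interval from 1.09 to 1.31 (exact permutation test, two-sided, p = 0.0286). Without DMSO 2 the log2 fold change was 0.18, and it was called with each library left out in turn.

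Egr2 (ENSMUSG00000037868, chromosome 10 from 67535475 to 67542188, plus strand) encodes Krox-20, known for hindbrain patterning and myelination and also expressed in bone. It had 69, 78 and 85 reads under vehicle, against 55, 73, 67 and 68 under purmorphamine, and the groups overlapped. The log2 fold change was -0.28 (standard error 0.142, 95% interval from -0.58 to 0.02), with an adjusted p of 0.117 from edgeR and p = 0.0857 from the exact permutation test (two-sided). The call was lost with DESeq2 (adjusted p = 0.235) and in edgeR without DMSO 3 (adjusted p = 0.206), DMSO 4 (0.364) or purmorphamine 5 (0.301).

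Egr3 (ENSMUSG00000033730, chromosome 14 from 70077203 to 70082614, plus strand) encodes an Egr protein that Egr1 and Egr2 resemble in their zinc fingers. It had 17, 14 and 10 reads under vehicle, against 17, 13, 6 and 8 under purmorphamine. The highest libraries of both groups were equal. Its log2 fold change was -0.36 with a 95% interval from -1.10 to 0.38 (adjusted p = 0.429 from edgeR; exact permutation test, two-sided, p = 0.371). Without purmorphamine 5 the log2 fold change was -0.63 and the gene was called (adjusted p = 0.176 from edgeR).

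The make-up of each family is given as shares of the family's reads per kilobase of exon. These shares describe the libraries and were not tested. Fosl2 made up 75.3 ± 2.11% (SD, n = 3) with vehicle, from 74.0% to 77.7%, and 90.2 ± 1.57% (SD, n = 4) with purmorphamine, from 87.9% to 91.3%. Fos made up 20.3 ± 1.70% and 7.57 ± 1.11%, and Fosb 3.47 ± 0.306% and 2.14 ± 0.477%. For each of Fosl2, Fos and Fosb the ranges of the groups did not overlap. These are not separate results, since a larger share of Fosl2 by itself lowers the other shares. The reads of Fosb, given above, did overlap. Within a library, Fosl2 per kilobase was 3.42, 3.53 and 4.22 times Fos with vehicle. With purmorphamine it was 13.8, 12.8, 12.3 and 9.58 times Fos. Scaling between libraries does not affect this ratio, but the exon lengths do. In reads without division by length it was 14.1 to 17.4 with vehicle and 39.4 to 56.6 with purmorphamine. The family as a whole gave 185 to 190 reads per kilobase with vehicle and 224 to 245 with purmorphamine.

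In the Jun family, Jun made up 56.2 ± 0.502% of the reads per kilobase with vehicle and 49.6 ± 1.65% with purmorphamine, Jund 39.4 ± 0.932% and 47.4 ± 1.95%, and Junb 4.40 ± 0.568% and 2.99 ± 0.614%. With gene lengths from the table, chosen after the values were seen, the share of Jund was 26.9 ± 0.794% and 33.9 ± 1.76%, lower in both groups and again without overlap. The family sum was 334 to 339 reads per kilobase with vehicle and 324 to 383 with purmorphamine, so that the groups overlapped. In the Egr family, Egr1 made up 87.1 ± 0.466% with vehicle and 90.8 ± 0.567% with purmorphamine, Egr2 11.3 ± 0.242% and 8.10 ± 0.788%, and Egr3 1.57 ± 0.547% and 1.05 ± 0.483%.

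**Figure D3:**
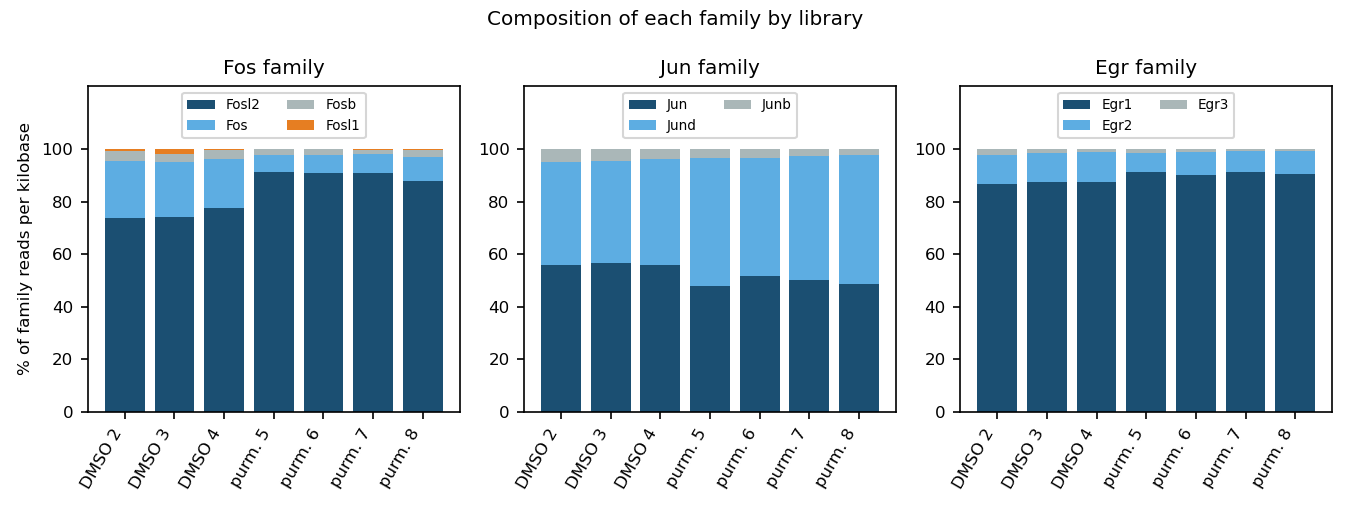
Share of each member (colors) in the reads per kilobase of its family (y axis, percent) in each of the 7 libraries. The share of Fosl2 lies between 74.0 and 77.7% in the vehicle libraries and between 87.9 and 91.3% in the purmorphamine libraries.

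Of the 10 members, 4 had groups that did not overlap in the counts as deposited (Fos below, Fosl2, Jund and Egr1 above), where 49.5% of the genes tested did so, 29.1% above and 20.4% below. The members are short genes. All but Fosl2 span less than 10000 bases, as do 24.3% of the genes tested, and their longest transcripts have 1 to 5 exons, where the median over the genes tested was 9.

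Genes that act with AP-1 and Egr were counted in the same fit, in lists that share some genes. Beside the counts of each list, 31.4% of all genes tested were called higher and 31.1% lower. Of 12 other basic leucine zipper partners, 6 were tested, and 5 of them rose and 0 fell (median log2 fold change 0.28). Maf, a large Maf protein of chondrocytes and other cells, had 398 to 436 reads with vehicle and 926 to 1087 with purmorphamine (log2 fold change 1.21, standard error 0.0693, adjusted p = 2.43e-10 from edgeR). The small Maf proteins, which lack an activation domain, rose less, with log2 fold changes of 0.36 for Mafg, 0.31 for Maff and 0.24 for Mafk (adjusted p = 0.000128, 0.0639 and 0.0189 from edgeR). The call for Maff was lost without DMSO 2 (adjusted p = 0.2005 from edgeR). Jdp2, a repressor that dimerizes with Jun, also rose, with a log2 fold change of 0.19 (adjusted p = 0.101 from edgeR), whereas Atf2 was at 0.08 (adjusted p = 0.242). Atf3, a stress-induced partner of Jun, was too low for the test, with 9, 19 and 24 reads under vehicle, against 1, 2, 3 and 9 under purmorphamine. Batf, Batf2 and Batf3 have no row, and Atf7, with rows under different identifiers, was not used.

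Other immediate early genes moved in both directions. Of 34 genes, 32 were tested, of which 9 rose and 16 fell (median log2 fold change -0.14). Calls in both directions are not particular to this class, as 31.4% of all genes were called higher and 31.1% lower. The largest increases were those of Klf4, a zinc-finger factor of cell identity (log2 fold change 2.86), Ccn2, a secreted matricellular protein (1.56), Klf10 (1.16) and Ier5 (0.66). In these, as in Fosl2 and Egr1, the groups did not overlap, from 650 to 657 against 4762 to 4986 reads for Klf4 and from 1718 to 1933 against 4880 to 6020 for Ccn2. The largest decreases were those of Homer1, a scaffold protein (-1.64), Myc (-1.35), Nr4a1, an orphan nuclear receptor (-1.29), and Ccn1, a matricellular protein related to Ccn2 (-1.29). Nr4a1 had 239, 187 and 221 reads under vehicle, against 95, 82, 98 and 88 under purmorphamine, a change of about the size of that of Fos. The adjusted p of these 8 genes from edgeR ran from 1.43e-16 for Klf4 to 4.77e-06 for Ier5. Egr4 and Npas4 had at most 3 reads and were not tested.

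Among the kinases and SRF partners upstream of the members, 4 of 22 genes tested rose, 6 fell and 12 were not called (median log2 fold change -0.02). Mapk3, a kinase of the ERK pathway, fell from 1745 to 1966 reads with vehicle to 1317 to 1611 with purmorphamine (log2 fold change -0.34, adjusted p = 0.000285 from edgeR). Rps6ka2, an ERK-activated kinase, had a log2 fold change of 0.84 (adjusted p = 5.84e-06 from edgeR), and its relative Rps6ka1, with 9 to 36 reads, one of -1.11 (adjusted p = 0.00165). Mrtfb, a coactivator of SRF, Map2k7, which activates JNK, and Elk4, an SRF partner, rose with log2 fold changes of 0.27, 0.23 and 0.23, and Map2k2 fell by 0.20 on the log2 scale (adjusted p = 0.0822 from edgeR), a call that was lost without purmorphamine 7 (log2 fold change -0.10, adjusted p = 0.239). Srf itself, which is also in the list of immediate early genes, fell by 0.16 on the log2 scale (adjusted p = 0.0913). The number of genes called higher was 9 with library totals in place of TMM factors.

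Of 13 inhibitors of MAP kinases, AP-1 and Egr that were tested, 6 rose and 5 fell (median log2 fold change 0.08). All of those that fell were dual-specificity phosphatases, Dusp4 (-0.81), Dusp10 (-0.76), Dusp6 (-0.62), Dusp5 (-0.45) and Dusp7 (-0.17), of which Dusp6 is a known readout of ERK activity. Dusp6 had 326, 287 and 313 reads under vehicle, against 199, 199, 216 and 215 under purmorphamine. Dusp1, the phosphatase that is itself an immediate early gene, rose from 195 to 210 reads to 265 to 297 (log2 fold change 0.45, adjusted p = 0.000238 from edgeR). Nab2, the Egr corepressor and an Egr target, had 639, 638 and 648 reads under vehicle, against 807, 814, 773 and 825 under purmorphamine (log2 fold change 0.28, adjusted p = 0.000331 from edgeR), a change close in size to that of Egr1. Nab1 was at 0.08 (adjusted p = 0.314 from edgeR). The others that rose, Mafg, Maff, Mafk and Jdp2, are given above.

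Genes described as AP-1 targets in other settings fell in 7 cases and rose in 2 of 11 tested (median log2 fold change -0.28). Spp1, which encodes osteopontin, fell from 806 to 870 reads to 184 to 233 (log2 fold change -2.02), Ccl2, a chemokine, from 123 to 162 reads to 32 to 54 (-1.83), and Il1rl1, a known serum and Fos target of fibroblasts, from 232 to 269 reads to 71 to 100 (-1.62). Timp1, a protease inhibitor, fell from 820 to 961 reads to 605 to 726 (-0.46). In contrast, Ccnd1, which encodes cyclin D1, rose from 2723 to 2948 reads to 9051 to 9946 (1.68), and Cd44 from 1988 to 2039 to 3036 to 3402 (0.65). The largest adjusted p among these 6 genes was 6.37e-05 (Timp1, edgeR). Mmp9, too low for the test, had 10, 23 and 17 reads under vehicle, against 3, 3, 4 and 7 under purmorphamine. Mmp13 had at most 2 reads, and Mmp3 and Mmp10 have no row.

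Of 12 genes described as Egr targets, 11 were tested, of which 2 rose and 5 fell (median log2 fold change -0.12). Thbs1, a matricellular protein, F3, which encodes tissue factor, and Pdgfb were lower, with log2 fold changes of -1.26, -0.89 and -0.37 (adjusted p = 7.00e-11, 1.91e-10 and 0.0303 from edgeR). Vegfa rose from 528 to 646 reads to 1112 to 1335 (0.96, adjusted p = 1.35e-08), and Nab2 is given above. Scx, with 2 to 10 reads, was not tested.

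**Figure D4:**
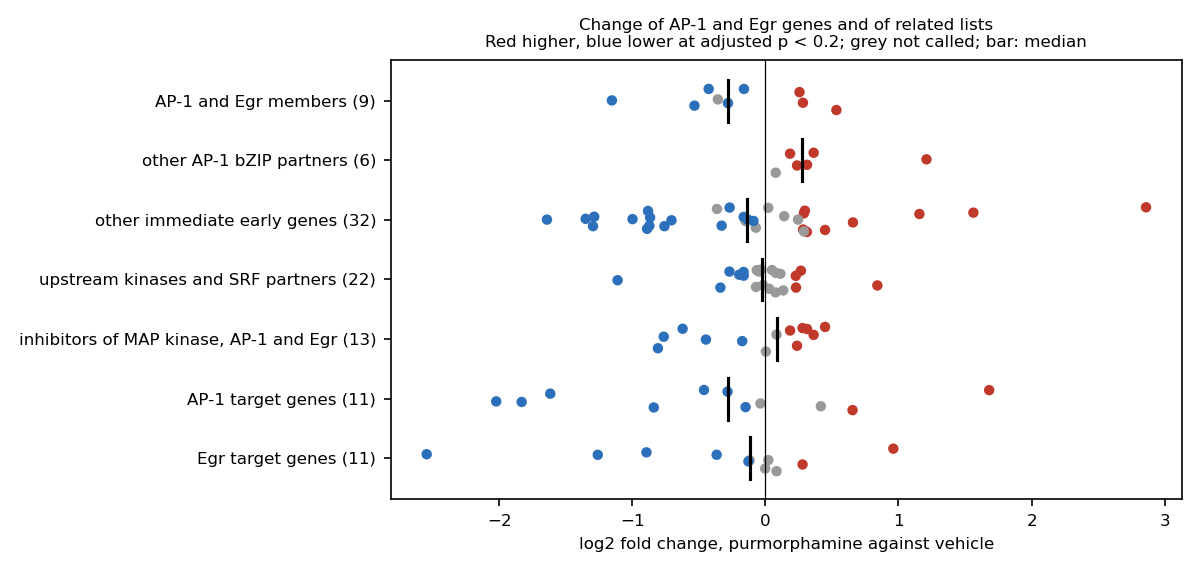
Log2 fold change (x axis, purmorphamine against vehicle) of each gene tested in the members and in 6 related lists (rows, with the number tested), colored by call, with the median of each list as a bar. The members and the other immediate early genes lie on both sides of 0, whereas 5 of 6 basic leucine zipper partners were called higher.

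The genes whose pattern over the 7 libraries was most like that of Fos were Fblim1, Prkg2 and Dtna, among 10672 genes whose mean over the libraries was 50 reads or more. Likeness was the root mean square difference in log2 CPM after each gene was centered on its mean, which was 0.0986, 0.106 and 0.114. Fblim1, which encodes a filamin-binding protein of cell adhesions, had 232 to 269 reads with vehicle and 113 to 127 with purmorphamine. For Egr1 the closest were Zfp319 (0.0334), Ccdc75 (0.0434) and Zscan20 (0.0466). Zfp319 had 69, 74 and 81 reads under vehicle, against 92, 96, 93 and 89 under purmorphamine. The lowest vehicle library was DMSO 2 for each of these 3 genes, as it was for Egr1, which the choice of genes by likeness favors.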

How the data were processed

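Single-read RNA sequencing of 7 C3H10T1/2 libraries (3 vehicle, 4 purmorphamine) was quantified by the authors, who resampled the reads to equal numbers per library and deposited whole-number counts of sense-strand reads per gene. The submitters' processing notes name STAR 2.5.3a and mm9. The study tested with limma-voom and Benjamini-Hochberg adjustment.

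From these counts, edgeR 4.0.16 (limma 3.58.1, R 4.3.3) was run with TMM factors, its default filter (10 counts scaled to library size, total 15) and the quasi-likelihood test, with no covariates. The filter left 12388 of 18468 genes, and adjusted p-values are over all of these. A standard error is the absolute log2 fold change over the square root of F. Exact permutation tests used mean log2(TMM-scaled count + 1). Positions and exon lengths are from GENCODE M21 (GRCm38), matched by Ensembl identifier for 95.5% of genes. The table's own coordinates, of another build, were not printed.

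Members and lists were chosen with earlier results of these data known. Named from each list were up to 4 increases and 4 decreases among called genes averaging 20 reads or more, besides others named for completeness after their values were seen. The steps were tested on simulated counts. As alternatives, scaling, filter and threshold were changed, DESeq2 1.42.0 and limma-voom were run, and each library was left out. Some genes of the lists are counted but not reported here by name.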

Additional observations from a re-analysis of the deposited data

Results flagged for a closer look

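In the purmorphamine group, 1 library stood apart from the other three for Mafg. Purmorphamine 6 had 970 reads against 859, 856 and 858, and its distance from the next library was 0.938 of the group's range in scaled counts. Of 47 genes examined in this way it was the 1 found, where chance gives about 2.35.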

How the results depend on the processing

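No paired analysis was possible because vehicle and purmorphamine libraries carry different replicate numbers. With 3 and 4 libraries and at most 43 reads of Fosb, Junb or Egr3 in a library, small changes of these genes were at the limit of the depth. No result changed direction in any alternative. Fos, Fosl2, Jund and Egr1 kept their calls in every other scaling, test and filter and with each library left out. With an adjusted p under 0.05, 1 member was called lower, as Fosb (log2 fold change -0.43), Jun (-0.16), Junb (-0.53) and Egr2 (-0.28) were lost, and 3 basic leucine zipper partners were called higher. Requiring 1.5-fold as well left 977 genes called higher and 936 lower, and among the members 0 higher and 1 lower (Fos), by the construction of the threshold, since Fosl2 (0.53), Jund (0.28) and Egr1 (0.26) fell short too. It left 1 higher of the partners, 4 higher and 11 lower of the other immediate early genes, 1 higher and 1 lower of the upstream genes, 0 higher and 3 lower of the inhibitors, 4 lower of the AP-1 targets, and 1 higher and 3 lower of the Egr targets. Library totals in place of TMM took Jun to -0.11 (not called) and the upstream genes called higher to 9. DESeq2 gave -0.28 for Egr2 (not called). Without the filter on low counts 1 partner was called lower (Atf3, not tested in the main fit). Fosl1 then had a log2 fold change of -2.64 (adjusted p = 0.0373 from edgeR). With DMSO 2 left out, 1 partner was also called lower. With single libraries left out, genes called higher ran from 3500 to 3961 and lower from 3374 to 3793, members lower from 4 to 5, and partners lower from 0 to 1. Log2 fold changes then ran from -0.54 to -0.32 for Fosb, from -0.35 to -0.20 for Egr2 and from -0.63 to -0.15 for Egr3. On counts as deposited the exact permutation p of Fosl1 was 0.0857. Without division by length, with vehicle and purmorphamine, the shares were 91.1% and 96.5% for Fosl2, 25.8% and 32.4% for Jund, and 89.6% and 92.7% for Egr1. With the table's lengths, chosen after the data were seen, those of Jund were 26.9% and 33.9%.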
